A study of Mus musculus with 14 samples.

Results

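Transcripts of B cells, of antibody-secreting plasma cells and of the receptor that carries their antibody into bile were examined in liver RNA from mice after biliary or bariatric surgery. The 9 genes were taken by symbol from the 25212 rows of the read count table: Igkc, Ighm and Igha, which encode antibody constant regions, Cd79a, Cd79b and Ms4a1, which encode B cell surface proteins, Mzb1 and Pou2af1, which act inside B lineage cells, and Pigr, the receptor for polymeric immunoglobulin. Of these 9 genes, 7 passed the filter on low counts and were tested with the other genes, and Ms4a1 and Mzb1 are given as counts. The livers came from male C57BL/6 mice that received a high-fat diet from 6 weeks of age for 12 weeks before allocation and remained on it afterwards. The diet-induced obese (DIO) group of 5 mice had no operation. In the GB-IL group of 4 mice the gallbladder was joined to the ileum and the common bile duct was ligated, so that bile entered the distal intestine. The RYGB group of 5 mice had a Roux-en-Y gastric bypass. Operated livers were taken 8 weeks after surgery according to the labels. All groups shared the diet, and neither comparison with DIO includes a sham operation, so the anatomical change and surgery itself cannot be told apart. The study also reports lower body weight and more faecal lipid in GB-IL and RYGB than in DIO mice. These differences cannot be told apart from the operations either.

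B cells carry a membrane antibody whose signal is passed on by the CD79A and CD79B chains, and plasma cells switch to secreting antibody made of light chains and heavy chains. The heavy chain constant gene sets the class: Ighm gives IgM, Igha gives IgA and the Ighg genes give IgG. In the mouse, polymeric IgA and IgM joined by the J chain are taken up by hepatocytes through the polymeric immunoglobulin receptor and released into bile, whereas most IgA plasma cells reside in the intestinal wall.

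The results turn on which constant genes rose, and these are told apart by sequence. The first 90 bases of the constant region are shown for the 3 antibody genes among the 9 and for the 4 IgG genes, read 5′ to 3′ from GENCODE M21 transcripts on GRCm38. The stretches lie in coding exons at chr6:70726435-70726524 (+ strand, Igkc), chr12:113422641-113422730 (− strand, Ighm), chr12:113260147-113260236 (− strand, Igha), chr12:113330434-113330523 (− strand, Ighg1), chr12:113307844-113307933 (− strand, Ighg2b), chr12:113288843-113288932 (− strand, Ighg2c) and chr12:113361143-113361232 (− strand, Ighg3). Capitals mark the 29 of 90 positions at which the 4 IgG genes are not all identical.
Igkc: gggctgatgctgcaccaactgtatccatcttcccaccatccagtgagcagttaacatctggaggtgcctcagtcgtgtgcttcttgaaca
Ighm: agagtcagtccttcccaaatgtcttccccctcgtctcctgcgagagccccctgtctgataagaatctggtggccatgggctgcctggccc
Igha: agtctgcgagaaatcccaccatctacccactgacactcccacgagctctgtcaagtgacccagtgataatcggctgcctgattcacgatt
Ighg1: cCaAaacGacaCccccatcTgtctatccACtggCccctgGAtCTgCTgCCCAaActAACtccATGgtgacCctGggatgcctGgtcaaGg
Ighg2b: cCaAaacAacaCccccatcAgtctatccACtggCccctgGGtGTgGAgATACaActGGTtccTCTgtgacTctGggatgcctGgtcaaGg
Ighg2c: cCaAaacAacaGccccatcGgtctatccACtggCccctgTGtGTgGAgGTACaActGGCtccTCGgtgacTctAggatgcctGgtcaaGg
Ighg3: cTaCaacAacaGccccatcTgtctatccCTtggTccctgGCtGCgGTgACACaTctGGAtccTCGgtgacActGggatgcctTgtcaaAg
Over the whole first exon of 291 bases the IgG genes were 78.4% to 88.3% identical in pairs, and the longest run shared without a difference was 37 bases, between Ighg1 and Ighg2b. How reads that match several of these genes were counted is not given in the sources used here, so counts of single IgG genes are uncertain and their sum is given beside them. Counts per gene also do not separate the secreted from the membrane form of a heavy chain.

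Library totals ran from 18223135 to 28656631 counts. In a principal component analysis of log2 CPM the first axis carried 48.5% of the variance. There GB-IL livers 1 and 2 stood far from the others at -134 and -106, GB-IL liver 3 lay at -20.1 and RYGB liver 5 at -17.4. GB-IL liver 4 lay at 35.3, within the DIO range of 21.9 to 45.7. Calls that rest on these livers are therefore given with and without them, and without GB-IL livers 1 and 2 no gene of the table was called between GB-IL and DIO. The labels name 2 library kits, of which 1 selects mRNA and the other does not, but do not tie either to a liver, and kit and group therefore cannot be told apart. The study's methods describe another preparation, in which total RNA was amplified with a NuGEN Ovation kit before TruSeq steps. Which preparation each liver had is thus not known. The 9 hepatocyte markers, which define the labelled tissue, summed to between 101823 and 166968 CPM of the total count in every liver.

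The kappa light chain and IgA constant transcripts were higher in GB-IL than in DIO livers, and the rise was present in 3 of the 4 GB-IL livers. Igkc, the kappa light chain constant gene, had 1962, 1569, 3931 and 220 counts in GB-IL livers 1 to 4. In DIO livers 1 to 5 it had 134, 455, 435, 168 and 74 counts, and in RYGB livers 1 to 5 260, 190, 500, 184 and 526 counts. GB-IL livers 1, 2 and 3 exceeded every other liver, whereas GB-IL liver 4 lay within the DIO range. Counts were scaled with the TMM method to CPM, a level relative to the liver's own total, in which Igkc reached 91.6 ± 65.2 CPM in GB-IL (SD, n = 4) and 12.9 ± 8.79 CPM in DIO (SD, n = 5). The log2 fold change was 2.83 (SE 0.659, adjusted p = 0.0343, edgeR's quasi-likelihood test over 14252 genes with Benjamini-Hochberg adjustment at a false discovery rate of 0.05). In whole liver RNA, fewer or more cells of a type and less or more RNA per cell cannot be told apart.

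Igha, the IgA heavy chain constant gene, had 726, 1279, 316 and 28 counts in GB-IL livers 1 to 4. It had 45, 121, 76, 58 and 41 counts in DIO livers 1 to 5 and 293, 84, 415, 122 and 326 counts in RYGB livers 1 to 5. The order of the GB-IL livers differed from that of Igkc: liver 2 was the highest for Igha, at 72.2 CPM, and liver 3 the highest for Igkc, at 167 CPM. GB-IL liver 4, at 1.03 CPM of Igha, fell below all DIO livers. The means were 31.2 ± 31.4 CPM in GB-IL (SD, n = 4) and 3.49 ± 1.57 CPM in DIO (SD, n = 5), with a log2 fold change of 3.16 (SE 0.779, adjusted p = 0.0415, edgeR).

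Ighm, the IgM heavy chain constant gene, had 1342, 349, 2666 and 484 counts in GB-IL livers 1 to 4, 212, 836, 489, 195 and 106 counts in DIO livers 1 to 5, and 133, 232, 261, 199 and 335 counts in RYGB livers 1 to 5. Only GB-IL livers 1 and 3 exceeded all DIO livers. Its log2 fold change of 1.57 (SE 0.576) between GB-IL and DIO did not pass the threshold (adjusted p = 0.133, edgeR).

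In all, 2 of the 7 tested genes were called between GB-IL and DIO, both higher in GB-IL, where 3.26% of all tested genes were called and 3.15% were called higher. The median log2 fold change of the 7 was 0.21, beside 0.04 over all tested genes. Both calls depended on which livers entered. Without GB-IL liver 4, Igkc (log2 fold change 3.20, adjusted p = 0.00105), Igha (3.55, adjusted p = 0.000939) and Ighm (1.86, adjusted p = 0.0291) were called, in a fit in which 24.6% of all genes were called (edgeR). Without GB-IL livers 1 and 2 together, Igkc kept a log2 fold change of 2.73 (adjusted p = 0.172) while that of Igha was 1.01 (adjusted p = 0.848, edgeR), and no gene of the table was called. The calls of Igkc and Igha were also lost when GB-IL liver 1, GB-IL liver 2 or any single DIO liver was left out, with adjusted p-values between 0.0648 and 0.145 (edgeR), in fits that called 0 genes of the table. The call of Igkc was lost without GB-IL liver 3 (adjusted p = 0.0586) and that of Igha without any 1 of RYGB livers 1 to 4 (adjusted p between 0.0506 and 0.0546, edgeR). Both were lost in the fit of the compared groups alone (adjusted p = 0.116 and 0.117, edgeR). Igha lost its call under limma when voom weighted each liver by its quality (log2 fold change 1.98, adjusted p = 0.186), and Ighm gained one (2.63, adjusted p = 0.0375).

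**Figure D1:**
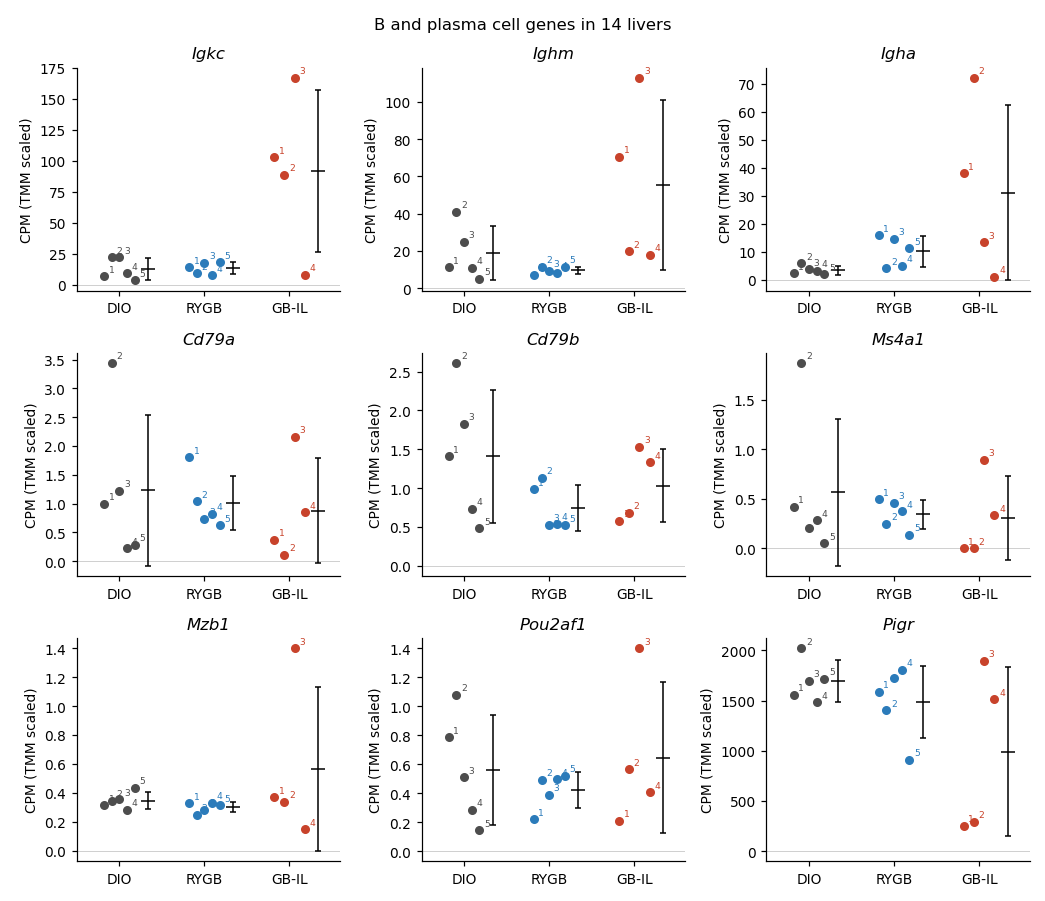
Level of each of the 9 genes (y axis, CPM scaled by TMM, linear) in the livers of each group (x axis), with points numbered by liver and the mean ± SD of the group in black. Igkc in GB-IL livers 1 to 3 lay between 88.6 and 167 CPM, above every other liver, whereas Pigr in GB-IL livers 1 and 2 lay at 253 and 291 CPM, below every other liver.

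The IgG constant genes, taken from a list of plasma cell genes, showed larger differences from low levels. Ighg2b reached 16.6, 22.0, 49.0 and 0.590 CPM in GB-IL livers 1 to 4, against 0.433 to 1.48 CPM in DIO, a log2 fold change of 4.49 (SE 0.822, adjusted p = 0.0278, edgeR). Ighg1 was called as well (log2 fold change 5.59, SE 1.14, adjusted p = 0.0278), as was Ighg2c (4.69, SE 0.981, adjusted p = 0.0290). GB-IL livers 1 to 3 exceeded all DIO livers for each of these genes. Without GB-IL livers 1 and 2 the log2 fold changes were 6.27 for Ighg1, 5.15 for Ighg2c and 4.62 for Ighg2b, but none was called (adjusted p between 0.103 and 0.104, edgeR). The fit of the compared groups alone and the fit with the replicate block called none of them, and voom with quality weights called only Ighg2b of the 3. GB-IL liver 3 carried much of the level: without it the ratio of the GB-IL to the DIO mean changed from 49.8 to 12.1 for Ighg1, from 26.0 to 10.3 for Ighg2c and from 22.6 to 13.4 for Ighg2b. Ighg3 did not pass (3.22, SE 0.982, adjusted p = 0.0827) and had 0 counts in GB-IL liver 4, which allows up to 0.111 CPM. Ighe, the IgE gene, had 3 counts over the GB-IL livers, 3 over the RYGB livers and 0 over the DIO livers. Summed over the 4 IgG genes, GB-IL livers 1 to 4 had 42.3, 34.7, 151 and 0.922 CPM, RYGB livers 5.57 to 19.7 CPM and DIO livers 1.54 to 3.26 CPM.

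Each GB-IL liver with high antibody transcripts had its own mixture of classes. The share of each class was taken from counts of the heavy chain constant genes per kb of their secreted form. In DIO livers IgM was the largest class, at 51.6% to 77.2% of heavy chain transcripts, followed by IgA at 15.2% to 27.1% and IgG at 7.62% to 21.3%. GB-IL liver 1 held 39.3% IgM, 28.9% IgA and 31.8% IgG. GB-IL liver 2 was mainly IgA, at 59.6%, with 28.4% IgG, and had the lowest IgM share of all livers. GB-IL liver 3 was mainly IgG, at 61.0%, with 33.6% IgM and 5.41% IgA. GB-IL liver 4 resembled none of these and held 87.1% IgM, above the DIO range. In RYGB livers IgM made up 18.5% to 46.6%, below all DIO livers, IgA 22.9% to 57.2%, and IgG 23.7% to 49.6%, above all DIO livers. Scaled by the whole annotated gene length, IgM shares of 27.8% to 59.3% in RYGB and 65.0% to 85.7% in DIO likewise did not overlap. These shares were computed after the counts had been seen and were not tested.

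**Figure D2:**
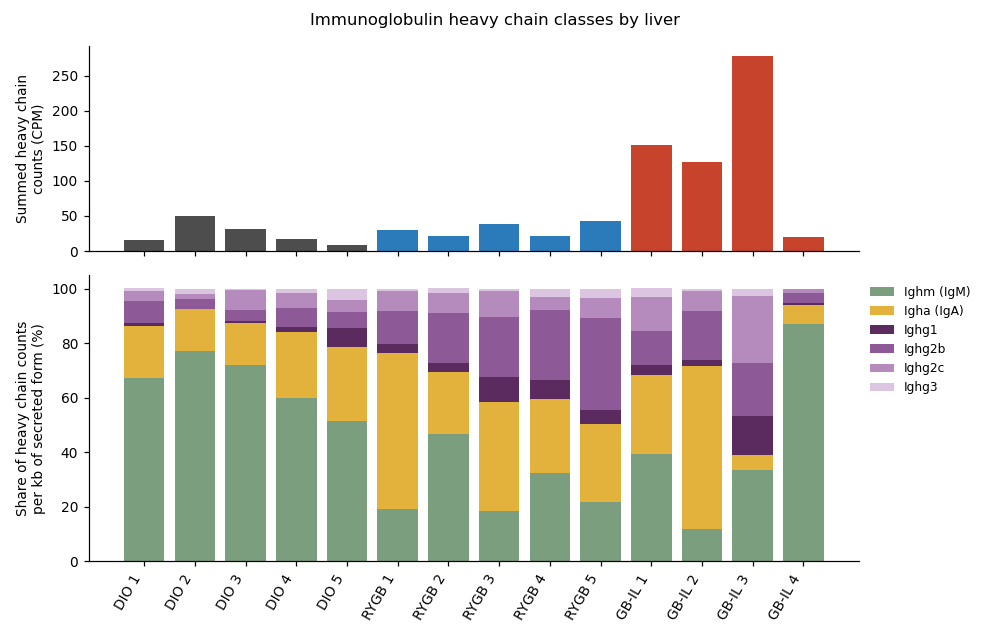
Upper panel, summed heavy chain counts (y axis, CPM scaled by TMM) in each liver (x axis, coloured by group). Lower panel, share of each class or IgG gene in the heavy chain counts per kb of secreted form (y axis, percent). Heavy chain transcripts in GB-IL livers 1 to 3 lay between 127 and 278 CPM, and IgM held 51.6% to 77.2% in DIO but 18.5% to 46.6% in RYGB.

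The counts of variable segments of the antibody genes showed whether 1 segment or many contributed. They do not give the number of different antibodies, since antibodies can share a segment. Of 182 rows of heavy, kappa and lambda variable segments, 180 had a count in at least 1 liver. Their summed level was 52.8, 37.3, 98.1 and 5.36 CPM of the total count in GB-IL livers 1 to 4, against 3.17 to 22.7 CPM in DIO and 8.13 to 19.1 CPM in RYGB. Again GB-IL livers 1 to 3 exceeded all others and GB-IL liver 4 did not. In GB-IL livers 1, 2 and 3, 119, 92 and 147 segments had a count, against 42 to 103 in DIO and 73 to 123 in RYGB. These numbers were not adjusted for the number of counts. GB-IL liver 2 had 92 segments from 717 counts, whereas RYGB liver 3 had 123 from 546. The most abundant segment made up 8.35%, 9.90% and 8.03% of the segment counts in GB-IL livers 1, 2 and 3. The corresponding share was 6.35% to 12.6% in DIO and 3.52% to 8.67% in RYGB, so no liver was dominated by 1 segment.

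The most abundant segment over all livers was Iglv1, a lambda segment (chr16:19085017-19085500, − strand), with 353 counts. Ighv1-26 (chr12:114788372-114788805, − strand) had 239 counts, of which 160 were in GB-IL liver 3. Igkv14-126 (chr6:67896172-67896642, + strand) had 229 counts, of which 197 were in GB-IL liver 3 and 19 in GB-IL liver 1. Iglv1 had 1.79, 3.61, 4.11 and 0.111 CPM in GB-IL livers 1 to 4 and 0.336 to 1.73 CPM in DIO, a log2 fold change of 1.60 (SE 0.834, adjusted p = 0.257, edgeR), with GB-IL livers 1 to 3 above all DIO livers. Of the lambda constant genes Iglc1, Iglc2 and Iglc3, only Iglc2 was among the counted genes. Iglc2 had a log2 fold change of -0.21 (SE 0.489, adjusted p = 0.802, edgeR), and no GB-IL liver exceeded all DIO livers. Per kb, Igkc made up 94.8% to 99.2% of the Igkc and Iglc2 counts in GB-IL, 87.6% to 95.1% in DIO and 91.6% to 95.7% in RYGB. This share leaves out Iglc1 and Iglc3 and so does not measure all lambda chains.

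**Figure D3:**
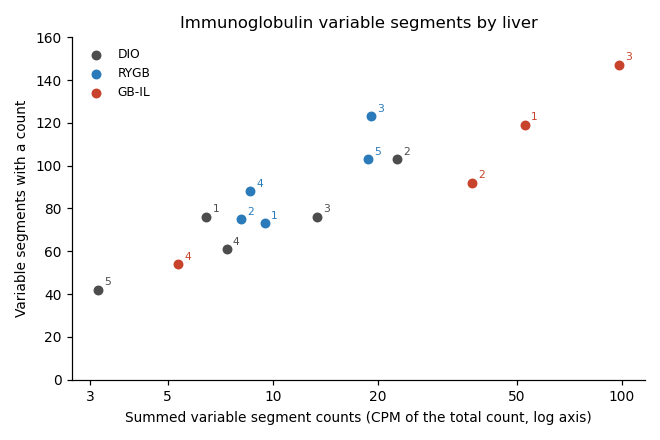
Number of variable segments with a count (y axis) against their summed level (x axis, CPM of the total count, log axis) in each of the 14 livers, numbered within groups. GB-IL livers 1 to 3 lay at 37.3 to 98.1 CPM with 92 to 147 segments, and all other livers at 22.7 CPM or less.

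Neither gene of the signalling chains of the B cell receptor was called between GB-IL and DIO. Cd79a, a signalling chain of the receptor (chr7:24897381-24902197, + strand), had 7, 2, 51 and 23 counts in GB-IL livers 1 to 4, 19, 70, 24, 4 and 6 counts in DIO livers 1 to 5, and 33, 21, 21, 20 and 18 counts in RYGB livers 1 to 5. GB-IL livers 1 and 2, where Igkc exceeded all DIO livers, had 0.368 and 0.113 CPM of Cd79a, and GB-IL liver 2 was the lowest of all livers. GB-IL liver 3, the highest for Igkc, had 2.16 CPM of Cd79a, below only DIO liver 2 at 3.44 CPM. The log2 fold change was -0.48 (SE 0.762, adjusted p = 0.709, edgeR), and it was 0.35 without DIO liver 2, the liver with the highest Cd79a. Without GB-IL livers 1 and 2 it was 0.25 (SE 0.776, adjusted p = 0.991, edgeR). With SEs of this size, the lack of a call does not show equal levels.

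Cd79b, the partner chain (chr11:106311341-106314762, − strand), had 11, 12, 36 and 36 counts in GB-IL livers 1 to 4, 27, 53, 36, 13 and 10 in DIO livers 1 to 5, and 18, 23, 15, 13 and 15 in RYGB livers 1 to 5. The groups overlapped, and the log2 fold change between GB-IL and DIO was -0.45 (SE 0.474, adjusted p = 0.559, edgeR). Without GB-IL livers 1 and 2 it was -0.01 (SE 0.532, adjusted p = 0.999, edgeR). With sample quality weights the signs of both chains turned, to 1.22 for Cd79a (adjusted p = 0.448) and 0.61 for Cd79b (adjusted p = 0.638, limma), without a call.

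The number of Igkc counts per Cd79a count was high in GB-IL livers 1 to 3. It was 280, 784, 77.1 and 9.57 in GB-IL livers 1 to 4, 6.50 to 42.0 in DIO and 7.88 to 29.2 in RYGB. GB-IL livers 1 to 3 thus lay above, and GB-IL liver 4 within, the range of the other groups. The value of 784 rests on 2 counts of Cd79a. The ratio reuses the Igkc counts given above and is not separate evidence of a difference.

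Ms4a1, which encodes the B cell surface protein CD20 (chr19:11249675-11266241, − strand), was too low to be tested. It had 0, 0, 21 and 9 counts in GB-IL livers 1 to 4, 8, 38, 4, 5 and 1 in DIO livers 1 to 5, and 9, 5, 13, 9 and 4 in RYGB livers 1 to 5. A count of 0 allows up to 0.158 CPM in GB-IL liver 1 and 0.169 CPM in GB-IL liver 2. The summed counts of 30 in GB-IL and 56 in DIO gave a ratio of rates of 0.598 (exact Clopper-Pearson 95% interval 0.370 to 0.948, counting error only), whereas over livers the difference was not larger than the spread (p = 0.667, exact two-sided permutation test). DIO liver 2 alone held 38 of the 56 DIO counts, and without it the mean difference was 0.0674 CPM higher in GB-IL.

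Pou2af1, a coactivator that works with octamer-binding factors at antibody genes (chr9:51213708-51240080, + strand), had 4, 10, 33 and 11 counts in GB-IL livers 1 to 4, 15, 22, 10, 5 and 3 in DIO livers 1 to 5, and 4, 10, 11, 12 and 15 in RYGB livers 1 to 5. GB-IL liver 3 was the highest of all livers, at 1.40 CPM, and the other GB-IL livers lay within the DIO range. The log2 fold change of 0.21 (SE 0.563, adjusted p = 0.836, edgeR) was -0.51 without GB-IL liver 3.

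Mzb1, a chaperone of the endoplasmic reticulum that assists antibody assembly, was also too low to be tested. It had 7, 6, 33 and 4 counts in GB-IL livers 1 to 4, 6, 7, 7, 5 and 9 in DIO livers 1 to 5, and 6, 5, 8, 8 and 9 in RYGB livers 1 to 5. GB-IL liver 3 stood above all others at 1.40 CPM, while GB-IL liver 4 was the lowest at 0.148 CPM. The mean was 0.563 ± 0.566 CPM in GB-IL (SD, n = 4) and 0.346 ± 0.0562 CPM in DIO (SD, n = 5), with p = 0.698 in the exact two-sided permutation test. Mzb1 shares 695 exonic bases with a neighbouring gene on the same strand, Spata24, so its counts are uncertain.

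**Figure D4:**
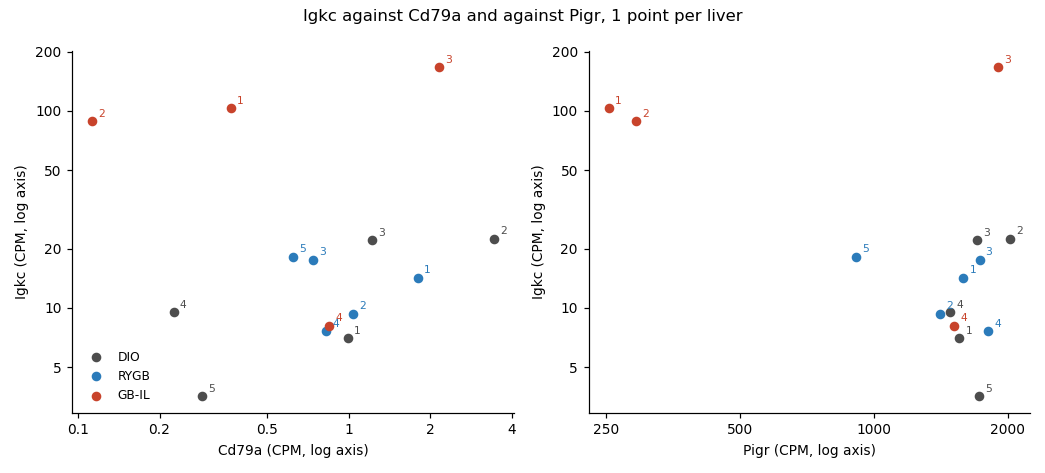
Igkc (y axis, CPM, log axis) against Cd79a (left x axis, CPM, log axis) and against Pigr (right x axis, CPM, log axis), 1 point per liver, numbered within groups. GB-IL livers 1 and 2 combine Igkc of 103 and 88.6 CPM with Cd79a of 0.368 and 0.113 CPM and Pigr of 253 and 291 CPM, and GB-IL liver 3 combines high Igkc with Cd79a and Pigr inside the DIO range.

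Pigr, which carries polymeric IgA and IgM across epithelial cells and hepatocytes (chr1:130826684-130852249, + strand), was the most abundant of the 9 genes and was divided within the GB-IL group. It had 4818, 5158, 44769 and 41029 counts in GB-IL livers 1 to 4, 29702, 41101, 33409, 26188 and 35776 in DIO livers 1 to 5, and 29034, 28484, 49035, 43650 and 26302 in RYGB livers 1 to 5. The DIO mean of 1696 ± 208 CPM (SD, n = 5) was 6.70 and 5.82 times the level in GB-IL livers 1 and 2, whereas GB-IL livers 3 and 4, at 1899 and 1514 CPM, lay within the DIO range. RYGB liver 5, at 910 CPM, was the lowest of the remaining livers. The difference between GB-IL and DIO was therefore smaller than the spread within GB-IL, with a log2 fold change of -0.78 (SE 0.494, adjusted p = 0.336, edgeR). Without GB-IL livers 1 and 2 it was -0.01 (SE 0.265, adjusted p = 0.996, edgeR). GB-IL livers 1 and 2, low in Pigr, were those with the highest Igha, at 38.1 and 72.2 CPM.

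Between RYGB and DIO none of the 7 tested genes was called by edgeR, where 0% of all tested genes were called. At an unadjusted p under 0.05 there was 1 of the 7, Igha, beside 1241 of 14252 genes in all, and DESeq2, voom with quality weights and edgeR's exact test also called 0 of the 7. Their median log2 fold change was -0.32, beside 0.01 over all tested genes. Igha had the largest difference, with 10.2 ± 5.43 CPM in RYGB (SD, n = 5) against 3.49 ± 1.57 CPM in DIO and a log2 fold change of 1.55 (SE 0.725, adjusted p = 0.573, edgeR). RYGB livers 1, 3 and 5 exceeded all DIO livers for Igha, and RYGB livers 2 and 4 did not. Igkc was at nearly the same mean level, 13.4 ± 4.77 CPM in RYGB (SD, n = 5), and the log2 fold change of 0.05 (SE 0.605, adjusted p = 0.985, edgeR) changed sign in 5 of 14 fits that left out 1 liver. Ighm (log2 fold change -0.97, SE 0.551, adjusted p = 0.647) and Cd79b (-0.95, SE 0.453, adjusted p = 0.578) were lower in RYGB without passing the threshold (edgeR). Among the plasma cell genes Ighg2b had 3.35 to 13.6 CPM in RYGB, above every DIO liver, with a log2 fold change of 2.77 (SE 0.766, adjusted p = 0.350, edgeR), and Ighg1 had 0.592 to 3.24 CPM, also above every DIO liver (2.88, SE 1.08, adjusted p = 0.507, edgeR). DESeq2, voom with quality weights and the fit of the compared groups alone called Ighg2b, and the exact test did not.

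Between GB-IL and RYGB none of the 7 tested genes was called by edgeR, where 0% of all tested genes were called, although 3 of the 7 and 3147 of 14252 genes had an unadjusted p under 0.05. DESeq2 and edgeR's exact test called Igkc and Ighm, and voom with quality weights called 0 of the 7. The log2 fold change was 2.77 for Igkc (SE 0.657, adjusted p = 0.0820), 2.53 for Ighm (SE 0.591, adjusted p = 0.0815) and 1.61 for Igha (SE 0.736, adjusted p = 0.219, edgeR). For Ighm, every GB-IL liver, at 17.9 CPM or more, exceeded every RYGB liver, at 11.6 CPM or less. Without GB-IL liver 4, Igkc, Ighm and Igha were called (adjusted p = 0.00279, 0.00789 and 0.0185), in a fit that called 21.5% of all genes (edgeR). Mzb1 did not differ between GB-IL and RYGB with all livers (p = 0.556, exact two-sided permutation test). Without GB-IL liver 4, its lowest liver, the unadjusted p was 0.0357 (exact two-sided permutation test). This was 1 of 9 ways of leaving out 1 liver. GB-IL livers 1 and 2, at 0.368 and 0.339 CPM, lay little above the highest RYGB liver, at 0.331 CPM. Without GB-IL liver 3 the difference turned to -0.0151 CPM. The comparison of GB-IL with RYGB shares the GB-IL livers with the first comparison and the RYGB livers with the second, so the 3 comparisons are not independent.

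**Figure D5:**
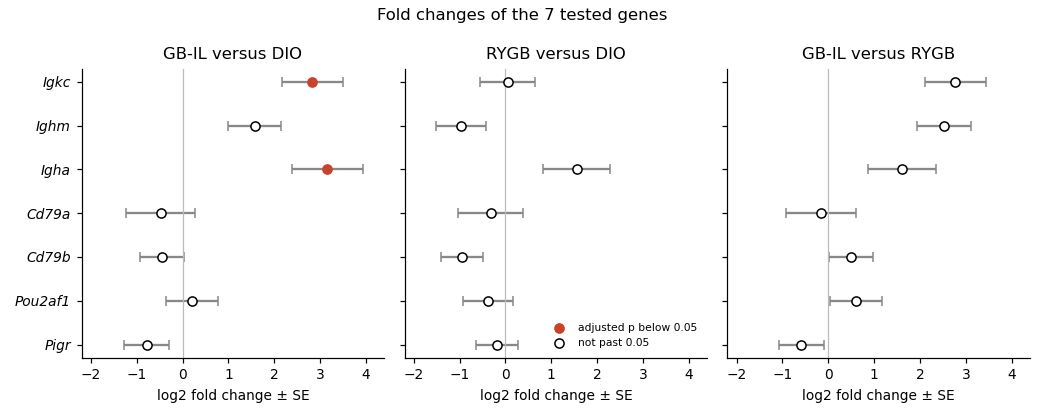
Log2 fold change with its SE (x axis) of the 7 tested genes (y axis) in the 3 comparisons, from edgeR's quasi-likelihood fit of all 14 livers, with filled points for an adjusted p below 0.05. Igkc and Igha are filled in GB-IL against DIO, at 2.83 and 3.16, and no point is filled in the other comparisons.

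Levels of different genes were compared per kb of annotated exon. This length was 1886 bases for Ighm and 2668 for Igha, whereas the secreted forms used for the class shares had 1493 and 1100. The order of genes and the statements on neighbours hold for the annotated length only. In DIO livers the order was Pigr at 421 ± 51.7, Igkc at 24.3 ± 16.5, Ighm at 9.89 ± 7.70, Igha at 1.31 ± 0.588, Cd79b at 0.988 ± 0.598, Cd79a at 0.848 ± 0.898, Mzb1 at 0.285 ± 0.0462, Pou2af1 at 0.220 ± 0.149 and Ms4a1 at 0.0913 ± 0.120 CPM per kb (SD, n = 5). Of neighbours in this order, Pigr and Igkc, and Ighm and Igha, differed by more than the larger of their SDs, and the other neighbours did not. In GB-IL livers the mean levels were 246 ± 209 for Pigr, 172 ± 123 for Igkc, 29.3 ± 24.2 for Ighm, 11.7 ± 11.8 for Igha, 0.718 ± 0.329 for Cd79b and 0.599 ± 0.626 CPM per kb for Cd79a (SD, n = 4). Only Igkc and Ighm among these neighbours differed by more than the larger of their SDs, since the antibody genes and Pigr varied widely between the 4 livers. In RYGB livers the levels were 369 ± 88.6 for Pigr, 25.2 ± 8.98 for Igkc, 5.06 ± 1.02 for Ighm and 3.83 ± 2.03 CPM per kb for Igha (SD, n = 5), of which the neighbours Ighm and Igha lay within 1 SD. Per kb of secreted form their order was the other way, with median shares in RYGB of 28.7% for Igha and 21.7% for Ighm.

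Other B cell and plasma cell genes were examined as 2 lists, and the difference between the lists was not tested. Of 30 further B cell genes, 21 were tested and 0 were called between GB-IL and DIO by edgeR, beside 3.26% called over all genes. At an unadjusted p under 0.05 there were 3 of the 21, beside 3297 of 14252 genes, and the median log2 fold change was 0, beside 0.04 over all genes. Those with the smallest p were Cd37, a tetraspanin of leukocytes (log2 fold change 1.15, SE 0.350, adjusted p = 0.0816), and Ltb, lymphotoxin beta (1.42, SE 0.645, adjusted p = 0.206, edgeR), and both were called without GB-IL liver 4. DESeq2 and edgeR's exact test called 1 of the 21, Cd37, beside 9.11% and 7.92% of all genes. Voom with quality weights called 2, Cd37 and Btk, beside 4.13% of all genes. Of 24 plasma cell genes, 18 were tested and 3 were called, beside 3.26% of all genes, the IgG genes Ighg1, Ighg2b and Ighg2c, with a median log2 fold change of 0.84. No plasma cell gene other than these IgG genes was called in that fit. Without GB-IL livers 1 and 2, 0 genes of either list were called. The median log2 fold change was then 0.4 for B cell and 0.66 for plasma cell genes, beside -0.02 over all genes. The J chain gene, listed as Igj, which joins polymeric IgA and IgM, had 8.14, 6.38, 16.1 and 1.81 CPM in GB-IL livers 1 to 4 and 1.06 to 4.87 CPM in DIO (log2 fold change 1.56, SE 0.547, adjusted p = 0.119, edgeR), and it was among 7 genes of the list called without GB-IL liver 4. The transcription factor genes of plasma cells did not pass: Prdm1 differed by 0.90 (log2, adjusted p = 0.299) and Xbp1, which hepatocytes also express, by 0.27 (log2, adjusted p = 0.450, edgeR). Tnfrsf13b, the receptor TACI, was too low to be tested and is named after its values were seen: it had 62 counts in GB-IL, 44 in RYGB and 23 in DIO, and every GB-IL liver exceeded every RYGB liver, which in turn exceeded every DIO liver. Over the 60 comparisons of 20 such low genes its smallest exact two-sided permutation p of 0.00794, the smallest that 5 against 5 livers allow, gave an adjusted p no lower than 0.318.

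Of 19 genes for B cell survival and homing signals, 11 were tested and 2 were called higher in GB-IL than in DIO, beside 3.15% of all genes, with a median log2 fold change of 0.84. Cxcl13, the chemokine that draws B cells through CXCR5, had 57.7, 53.2, 112 and 6.64 CPM in GB-IL livers 1 to 4, 1.68 to 5.90 CPM in DIO and 1.53 to 16.8 CPM in RYGB. All 4 GB-IL livers exceeded all DIO livers, and the log2 fold change was 4.19 (SE 0.712, adjusted p = 0.0278, edgeR). Ccl19, a ligand of CCR7, was also called (log2 fold change 2.12, SE 0.482, adjusted p = 0.0333, edgeR). Without GB-IL livers 1 and 2 neither was called, at 4.20 for Cxcl13 (adjusted p = 0.103) and 1.45 for Ccl19 (adjusted p = 0.358, edgeR).

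Of 12 genes for antibody transport and Fc receptors, 2 of 12 tested were called higher, beside 3.15% of all genes, with a median log2 fold change of 0.16. They were Fcer1g, the shared signalling chain of Fc receptors (1.70, SE 0.339, adjusted p = 0.0278), and Fcgr3, a low-affinity receptor for IgG (1.75, SE 0.377, adjusted p = 0.0310, edgeR). Neither was called without GB-IL livers 1 and 2, at 1.41 for Fcer1g (adjusted p = 0.166) and 1.17 for Fcgr3 (adjusted p = 0.306, edgeR). Fcgrt, the receptor that protects IgG from degradation, was not called (log2 fold change -0.46, SE 0.224, adjusted p = 0.231, edgeR). Between RYGB and DIO, 0 genes of the lists of B cell, plasma cell, homing and transport genes were called by edgeR, with 1 of 21, 2 of 18, 1 of 11 and 0 of 12 at an unadjusted p under 0.05, beside 1241 of 14252 genes. Of the 18 plasma cell genes, DESeq2, voom with quality weights and the fit of the compared groups alone each called 1, Ighg2b, and the exact test and the fit with the replicate block called 0. For the lists of B cell, homing and transport genes, voom called 0, 1 (Cxcl12) and 1 (Fcgrt, lower), while DESeq2 and the exact test called 0. Over all genes, 0.684% were called between RYGB and DIO by DESeq2, 11.9% by voom and 0.242% by the fit of the compared groups alone.

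Markers of some other cell types were also higher in GB-IL livers. Over all genes, 3.26% were called between GB-IL and DIO by edgeR, 9.11% by DESeq2, 7.92% by the exact test and 4.13% by voom. Neutrophil markers were called for 5 of 7 tested genes between GB-IL and DIO (S100a8, S100a9, Mmp8, Retnlg and Cxcr2), and their 9 genes summed to 114, 51.8, 364 and 6.70 CPM of the total count in GB-IL livers 1 to 4, 5.26 to 11.2 in DIO and 7.66 to 132 in RYGB, where liver 5 was the highest. Macrophage markers were called for 6 of 14 (Lyz2, Cd68, C1qb, C1qc, Itgam and Marco) and summed to 886 to 2342 CPM in GB-IL, 481 to 776 in DIO and 506 to 1196 in RYGB. Cholangiocyte markers were called for 4 of 10 (Spp1, Krt19, Muc1 and Krt7) and summed to 195 to 552 CPM in GB-IL, 156 to 198 in DIO and 160 to 220 in RYGB. T and NK cell markers were called for 0 of 11 by edgeR, DESeq2, voom and the exact test, with 1, Cd28 (log2 fold change 0.97, adjusted p = 0.184), at an unadjusted p under 0.05 and Cd4 next (-0.74, adjusted p = 0.507), and summed to 5.15 to 25.2 CPM in GB-IL, 8.76 to 15.1 in DIO and 3.32 to 10.6 in RYGB. Plasmacytoid dendritic cell markers were called for 0 of 6 by edgeR and voom and for 1, Ly6d, by DESeq2 and the exact test, with 3 at an unadjusted p under 0.05, Ly6d (2.55, adjusted p = 0.0816) and Runx2 (1.57, adjusted p = 0.109) first (edgeR), and summed to 73.4 to 168 CPM in GB-IL, 103 to 147 in DIO and 92.0 to 135 in RYGB. Hepatocyte markers were called for 1 of 9, Fgb (1.57, adjusted p = 0.0489), with Ttr next (-1.20, adjusted p = 0.0816), and red cell markers for 1 of 8, Alas2, which was lower (-1.63, adjusted p = 0.0458, edgeR). Hepatocyte markers summed to 101823 to 141994 CPM in GB-IL and 131687 to 151262 in DIO, and red cell markers to 164 to 1771 CPM in GB-IL and 248 to 2440 in DIO. A further list held genes taken to give RNAs without a poly(A) tail, which the library kits treat differently. Whether their transcripts lacked a tail in these livers was not tested, and Hist1h2bc has 2 annotated exonic blocks. Of this list, 0 of 5 were called by edgeR and voom and 1, Rn7sk, by DESeq2 and the exact test. At an unadjusted p under 0.05 there was 1 (Rn7sk, 1.43, adjusted p = 0.0915, edgeR), with Hist1h2bc next (-0.51, adjusted p = 0.367). None of the listed genes present in the table was at 0 in all livers. None of these markers was called without GB-IL livers 1 and 2, when the median log2 fold change was 5.46 for neutrophil, 1.15 for macrophage and 0.33 for cholangiocyte markers, beside 5.10, 1.28 and 1.96 with all livers. The part of these cells, of blood and of RNA composition in the antibody results was not tested.

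Among the genes whose log2 CPM over the 14 livers was most like that of Cd79a were Gm8995 (Pearson r = 0.905), H2-DMb2 (0.880), Gbp11 (0.876) and Enpp1 (0.853), with Spearman's rho between 0.846 and 0.881. H2-DMb2 belongs to the list of B cell genes. Those most like Igkc were Igj (0.937), Ighg2c (0.927), the kappa variable segment Igkv10-96 (0.921), Ccdc88b (0.918) and Atp6v1b2 (0.917). Those most like Pigr were Lin7a (0.980), Cyp2j5 (0.980), Phyhd1 (0.980), Ces3a (0.979) and 2810007J24Rik (0.977), with Spearman's rho between 0.451 and 0.824. Without the 2 livers farthest from the median of Pigr, GB-IL livers 1 and 2, r lay between 0.741 and 0.827, and without the 2 farthest for Igkc, GB-IL livers 1 and 3, it lay between 0.821 and 0.884. Without the 2 farthest for Cd79a, GB-IL liver 2 and DIO liver 2, r lay between 0.734 and 0.855. The genes were picked for these values among all tested genes, the livers share groups and depth, and no p-value is given.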

How the data were processed

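RNA-seq of 14 mouse livers was analysed from the table of read counts per gene deposited by the authors, who per the study's methods amplified the RNA, sequenced it on an Illumina HiSeq, aligned the reads to mm10 (TopHat) and obtained gene counts from HTSeq. The labels also list hg19 as a build. For annotation, strand setting, reads that match several genes and tool versions the sources used here give nothing. Groups came from the labels, in which each liver is 1 sample.

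Counts were tested as deposited with edgeR 4.0.16 in R 4.3.3, using TMM scaling, edgeR's filter on low counts by group, a quasi-likelihood fit of all 14 livers and Benjamini-Hochberg adjustment at 0.05, which left 14252 of 25212 rows. Totals were 18223135 to 28656631 counts per liver. For low genes, CPM values were set against each other by two-sided exact permutation, and by ratios of summed counts with exact 95% intervals. A count of 0 was read as up to 3 counts. Intervals and floors cover counting error only. Other scalings, filters, DESeq2 1.42.0, limma 3.58.1 (voom), edgeR's exact test, a fit of the compared groups alone, a replicate block and leaving out livers were tried. The code was tested on simulated data. The rest was done in Python 3.11.15 (scipy 1.17.1, numpy 2.4.6, pandas 2.3.3). Positions and exon sequences are from GENCODE M21 on GRCm38, matched by identifier for 24701 rows.

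Named were all 9 genes, each called gene and the 2 with the smallest p between GB-IL and DIO of each list, the 5 genes most like Cd79a, Igkc and Pigr by Pearson's r of log2 CPM (prior count 2), and the 3 variable segments with the most counts. The genes and lists were chosen with earlier results of these data known. Isotype shares and the IgG genes shown beside them were chosen after the values were seen. Not every gene chosen in this way is reported here.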

Additional observations from a re-analysis of the deposited data

Results flagged for a closer look

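Ms4a1 in DIO liver 2, at 1.87 CPM, stood apart from the other 4 DIO livers, which lay between 0.0481 and 0.419 CPM. Its gap to the nearest liver was 0.797 of the group's range, above Dixon's critical value of 0.71. It was the single value set apart among 27 groups of 4 or 5 livers examined, a test that chance passes in about 1 of 20 groups. The same liver had the highest Cd79a, at 3.44 CPM, and the highest Cd79b, at 2.61 CPM.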

How the results depend on the processing

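Between GB-IL and DIO, the count of called genes among the 7 tested was 2, and it was 0 in the fit of the compared groups alone, 0 with the replicate block, 0 without GB-IL livers 1 and 2 together (an alternative chosen after seeing the data), and 0 to 3 when 1 liver at a time was left out. Between GB-IL and RYGB the count was 0, with 2 in DESeq2, 2 in the exact test and 0 to 3 with 1 liver left out, and between RYGB and DIO it was 0 throughout. Of the low genes Ms4a1 and Mzb1, 0 comparisons passed, with 0 to 1 when a liver was left out. The cause of these changes was not tested. Over all genes, the calls between GB-IL and DIO numbered 465, against 1292 in DESeq2, 1129 in the exact test, 1 with the block and 0 in the fit of the compared groups, those between RYGB and DIO 0, against 97, 44, 0 and 33, and those between GB-IL and RYGB 0, against 845, 681, 0 and 0. With voom and quality weights they numbered 589, 1690 and 115, and without the filter on low counts 522, 0 and 51.

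Signs turned only for values not called in the fit of all livers. With voom, Cd79a was 1.22 and Cd79b 0.61 between GB-IL and DIO, Cd79a 0.91 and Pou2af1 0.55 between RYGB and DIO, and Cd79a 0.30 between GB-IL and RYGB (log2 fold changes). With the block, Cd79a was 0.03 between RYGB and DIO. Without GB-IL livers 1 and 2, Cd79a was 0.25 between GB-IL and DIO, and Igha was -0.54, Cd79a 0.57 and Pigr 0.18 between GB-IL and RYGB. Leaving out 1 liver gave ranges of -1.42 to 0.35 (Cd79a) and -0.51 to 0.57 (Pou2af1) between GB-IL and DIO, -0.18 to 0.35 (Igkc) and -0.62 to 0.54 (Cd79a) between RYGB and DIO, and -1.10 to 0.17 (Cd79a) and -0.12 to 0.86 (Pou2af1) between GB-IL and RYGB. For Ms4a1 the difference in CPM ranged from -0.454 to 0.0674 between GB-IL and DIO, -0.352 to 0.103 between RYGB and DIO, and -0.231 to 0.0661 between GB-IL and RYGB, and for Mzb1 from -0.0613 to 0.356 between GB-IL and DIO and from -0.0151 to 0.402 between GB-IL and RYGB.

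The labels do not say whether replicate numbers pair the livers. Deviations of same-numbered livers from their group means correlated between -0.381 and 0.381, which cannot exclude a pairing. The block was therefore fitted as an alternative. It gave Igkc an adjusted p of 0.0922 and Igha of 0.162 between GB-IL and DIO (edgeR), so neither was called. With 2 to 70 counts per liver, Cd79a, Cd79b and Pou2af1 are limited by depth, and the GB-IL results by 4 livers that differ from each other.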

Other observations

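Il10, a cytokine of macrophages and some B cells that was too low to be tested with the other genes, had 40 counts in GB-IL livers, 10 in RYGB livers and 8 in DIO livers. The difference in CPM gave p = 0.0317 between GB-IL and DIO and p = 0.0317 between GB-IL and RYGB (exact two-sided permutation tests), and adjusted values of 0.38 over the 60 comparisons of 20 low genes. It was named after its values were seen.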
